A study of Drosophila melanogaster with 11 samples.

Results

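To characterize the transcripts that were abundant in the early embryo and recovered at a higher level with Smaug than with control serum, 184 of the 15433 transcripts on the arrays were examined. RNA co-immunoprecipitation followed by microarray hybridization (RIP-Chip) measures the mRNAs that an antibody brings down together with a protein. Extracts came from wild-type *Drosophila melanogaster* embryos aged 0 to 3 hours and kept at 25°C, named Oregon-R in the sample labels and w1118 in the methods, with no mutant or treatment in any group. Smaug RIPs used a guinea pig antibody against Smaug and control RIPs normal guinea pig serum, with 3 biological replicates of each. Each RIP has 4 arrays, because its replicate 1 was run on a pair of technical replicates, 1a and 1b. A further 3 arrays hold the input, that is, the total RNA of the extract before precipitation. The inputs were taken here as technical replicates, whereas the paper's supplement compares them under the numbers of biological replicates 1, 2 and 3. All Smaug RIPs and control RIPs 1a and 2 carried Cy5, while the inputs and control RIPs 1b and 3 carried Cy3. Whole embryos were pooled, so a wider spread of a transcript over the embryo and more of it at one place cannot be told apart.

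The members were chosen on their own readout in 2 steps. First, transcripts were ranked by their mean log2 input signal, the 300 highest were set aside, and those above the 75th percentile of all transcripts (9.43) were kept, which left a window of 3558 abundant transcripts. Second, the lowest of the 4 Smaug RIP arrays had to exceed the highest of the 4 control RIP arrays, and the mean log2 difference, with 1a and 1b averaged first, had to be at least 1, that is at least 2-fold. These criteria kept 184 transcripts, 5.17% of the window, and the mirrored criteria kept 20 that were lower in Smaug RIPs (0.562%). Arrays did not overlap, whatever the size of the difference, for 211 transcripts in the higher direction (5.93% of the window) and for 45 in the lower (1.26%). Since all 8 RIP arrays served for the choice, the differences between Smaug and control RIPs below are descriptions of the members and no test of them.

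Smaug is an RNA-binding protein of the early embryo. Its sterile alpha motif domain binds stem-loops known as Smaug recognition elements in target mRNAs, and Smaug then recruits partners such as the Cup protein, Argonaute 1 and the CCR4/NOT deadenylase, which block translation or shorten the poly(A) tail. Its best known targets are *nanos*, which specifies the posterior of the embryo, and *Hsp83*, a chaperone mRNA that is cleared from the bulk cytoplasm. The files list transcripts by FlyBase identifier, and only 44 of the 15433 identifiers could be paired with genes here, 17 of them with a single gene. Of these 17, 9 lay in the abundant window and 2 were members, *NaPi-III*, a gene of the phosphate transporter family, and *Uba1*, which encodes the enzyme that activates ubiquitin for its transfer to other proteins. *nanos* and *Hsp83* were not analysed here, nor were marker genes of the embryo. The members are therefore described mostly as a population.

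In every Smaug RIP array the members had much more signal than in any control RIP array. Their median log2 signal was 10.21, 10.46, 10.27 and 10.03 on Smaug RIP arrays 1a, 1b, 2 and 3. On control RIP arrays 1a, 1b, 2 and 3 it was 8.21, 8.83, 8.03 and 7.66. The 4 Smaug medians lay within 0.5 log2 units of each other, while control RIP 1b was the highest control and control RIP 3 the lowest. On input arrays the members had medians of 10.82, 10.87 and 10.75. The other 3374 transcripts of the window, measured by other probes, had medians of 7.67 to 8.31 on Smaug RIP arrays, 7.51 to 8.27 on control RIP arrays and 10.44 to 10.48 on input arrays, so that they did not separate the RIPs. Ranked within each array against all transcripts, 121 members (65.8%) were above the 95th percentile on all 4 Smaug RIP arrays and 12 (6.52%) on all 4 control RIP arrays. On control RIP arrays 1a, 1b, 2 and 3 taken singly, 20.1%, 25.0%, 24.5% and 13.0% of the members were above it. Of the other transcripts of the window, 12.3%, 12.7%, 10.6% and 7.53% were. Members were thus over-represented among the highest signals of each control RIP array too. Conversely, 88 members (47.8%) fell below the median of all transcripts on at least 1 control RIP array, and 1 did so on a Smaug RIP array. By single control RIP array, 1a, 1b, 2 and 3, it was 10.9%, 6.52%, 26.1% and 33.2% of the members. For the other transcripts of the window it was 17.3%, 10.4%, 28.7% and 39.6%, so members were not lower than these in control RIPs.

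**Figure D1:**
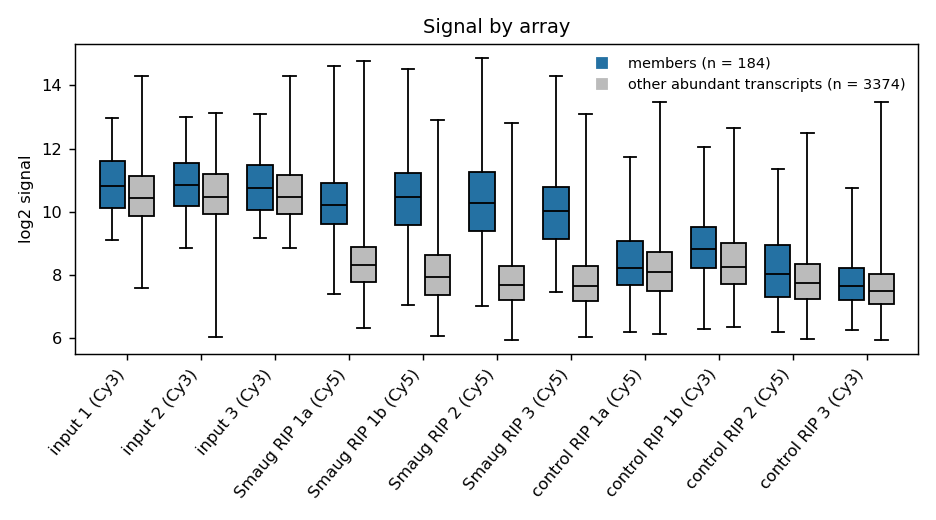
Log2 signal (y axis) of the 184 members, blue, and the other 3374 abundant transcripts, grey, on the 11 arrays (x axis, with dye); boxes span the quartiles, lines mark medians and whiskers reach the lowest and highest values. The members' medians are 10.03 to 10.46 on Smaug RIP arrays and 7.66 to 8.83 on control RIP arrays, whereas the medians of the others are alike in both RIPs.

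The enrichment of the members ranged from a log2 difference of 1.02 to 4.12, with a median of 1.96, a 3.89-fold difference. Between 2- and 4-fold lay 98 members (53.3%), between 4- and 8-fold 67 (36.4%), and at or above 8-fold 19 (10.3%). The median gap between the lowest Smaug RIP array and the highest control RIP array was 0.33 log2 units in the lowest of these classes, 0.93 in the middle and 1.72 in the highest. The classes differed in Smaug RIP signal more than in control RIP signal. Their median log2 signal from the lowest to the highest class was 9.46, 10.77 and 11.32 in Smaug RIPs, against control values of 8.01, 8.25 and 7.97. In the window outside the members, the difference had a median of -0.01 and a range of -2.76 to 2.84, the highest values belonging to transcripts whose arrays overlapped.

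**Figure D2:**
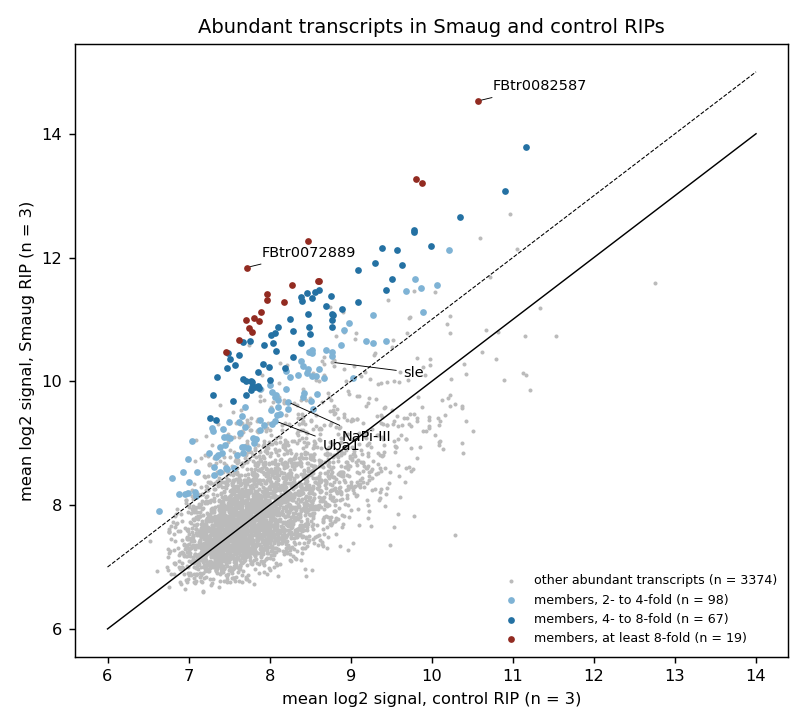
Mean log2 signal in control RIPs (x axis) and Smaug RIPs (y axis), n = 3 replicates each, for the 3558 abundant transcripts; the solid line marks equal signal, the dashed line a log2 difference of 1, and colours the members by fold. The 19 members at or above 8-fold lie at control signals from 7.47 to 10.57, and grey points above the dashed line had overlapping arrays.

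Taken replicate by replicate, the members differed between RIPs by similar amounts on each pair of same-numbered arrays. The median log2 difference was 1.91 for 1a, 1.59 for 1b, 2.07 for replicate 2 and 2.11 for replicate 3. In the rest of the window it was 0.17, -0.34, -0.07 and 0.17. A difference of at least 1 on all 4 pairs was found for 111 members (60.3%) and for 17 other transcripts of the window (0.504%). A difference of at least 2 on all 4 pairs was found for 21 members (11.4%) and was not counted for the other transcripts. The order of the members was only partly shared between replicates. Across the 184 members, Pearson's r between the differences of replicates 1 and 2 was 0.43, between 1 and 3 0.27 and between 2 and 3 0.31, and between the technical replicates 1a and 1b 0.47. These are descriptions across transcripts that share arrays, over a range the criteria had narrowed.

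Because every replicate entered the choice, the criteria were also applied to 2 biological replicates of each RIP at a time and read on the replicate left out, which gives a measure that the choice did not use. Without replicate 1, 441 transcripts of the window passed, and in replicate 1 (1a and 1b averaged) 373 of these (84.6%) had more signal in the Smaug RIP, against 46.5% of the whole window. Without replicate 2, 252 passed, of which 224 (88.9%) were higher in replicate 2, against 49.4% of the window. Without replicate 3, 295 passed, of which 266 (90.2%) were higher in replicate 3, against 60.7%. In each replicate left out, a larger share of the chosen transcripts than of the window was thus higher in the Smaug RIP. A difference of at least 1 was reached in the replicate left out by 49.9%, 63.9% and 62.4% of the chosen transcripts for replicates 1, 2 and 3, compared with 11.0%, 16.6% and 20.6% of the window. The median difference of the chosen transcripts was 0.98, 1.46 and 1.46 in the replicate left out and 1.53, 1.68 and 1.70 in the replicates used to choose them. The values fell on reading an unused replicate but stayed above the window medians of -0.05, -0.01 and 0.22. Members stay free of overlap on any part of the arrays that chose them, so only the size of the difference could remove them. Of the 184 members, 176 were also chosen without replicate 1, 176 without replicate 2 and 173 without replicate 3. With the direction turned, 147, 41 and 129 transcripts were chosen as lower in Smaug RIPs, and 75.5%, 68.3% and 45.0% of them were lower in the replicate left out. The share to compare with differs by replicate. It is what remains of the whole window after the 46.5%, 49.4% and 60.7% that were higher in replicates 1, 2 and 3. The median difference of the transcripts chosen as lower was -0.33, -0.31 and 0.16 in the replicate left out. The window medians were -0.05, -0.01 and 0.22.

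**Figure D3:**
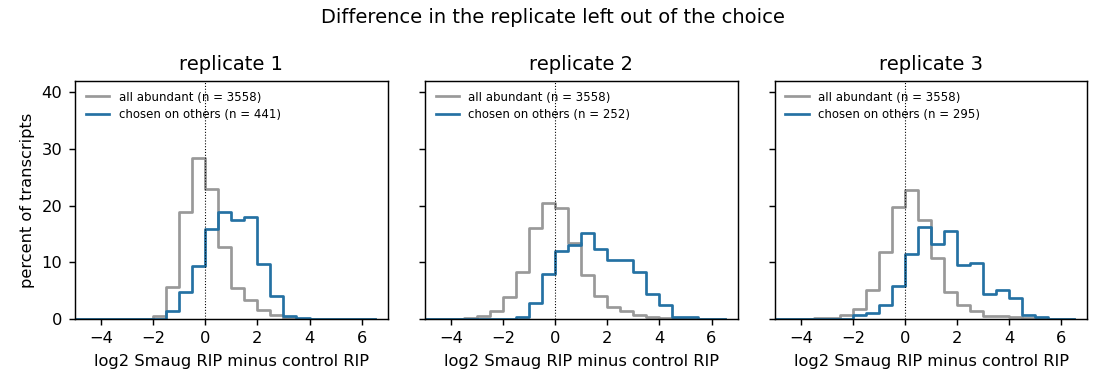
Distribution (y axis, percent of transcripts in bins of 0.5) of the log2 difference between Smaug RIP and control RIP (x axis) in replicates 1, 2 and 3, for all 3558 abundant transcripts, grey, and for those chosen on the other replicates, blue. The blue medians are 0.98, 1.46 and 1.46 and the grey medians -0.05, -0.01 and 0.22.

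Which array came closest to ending membership was not evenly spread. The lowest Smaug RIP value was that of array 3 for 91 members, 1a for 41, 2 for 37 and 1b for 15. The highest control RIP value was that of array 1b for 120 members, 1a for 30, 2 for 22 and 3 for 12. Control RIP 1b, labelled with Cy3, was above its technical replicate 1a, labelled with Cy5, for 142 members (77.2%), by a median of 0.47 log2 units, and for 62.9% of the other transcripts, by 0.21. Smaug RIPs 1a and 1b, both labelled with Cy5, differed by a median of 0.20 in favour of 1b in the members, which was higher in 114 of them (62.0%), and by -0.29 in the rest. Control RIP 3, also Cy3, was below control RIP 2, Cy5, by a median of 0.35 in the members. The Cy3 controls were thus the highest and the lowest of the controls. No Smaug RIP carried Cy3, so the RIPs can be compared within a dye only on Cy5 arrays. There, with 2 control arrays in place of 4, 292 transcripts met the criteria, with a median difference of 1.60, and 172 of the 184 members were among them. The Cy5 arrays are part of those that chose the members, so only the size of the difference could remove a member. Over the 3 biological replicates, the median SD of a member was 0.42 log2 units for Smaug and 0.60 for control RIPs. The SD was larger in control RIPs for 120 members (65.2%) and for 58.1% of the other transcripts.

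Among the members at or above 8-fold, Smaug RIP means reached from 10.47 to 14.53 and control RIP means from 7.47 to 10.57. The identifiers with the highest measured enrichment, to which no gene could be assigned here, were FBtr0072889 and FBtr0082587. FBtr0072889 had log2 signals of 11.60, 12.02, 12.30 and 11.41 on Smaug RIP arrays 1a, 1b, 2 and 3, and of 8.69, 8.57, 7.46 and 7.06 on control RIP arrays 1a, 1b, 2 and 3. All its Smaug RIP values lay over 2 log2 units above its highest control, and its controls 2 and 3 were near the array medians of 7.33 and 7.35. The measured log2 difference was 4.12 (17.4-fold), and the 4 pairs of arrays gave 2.91, 3.44, 4.84 and 4.35. The files used here give no background level, so with controls this low the fold may be a lower bound. FBtr0082587 had log2 signals of 14.36, 14.51, 14.87 and 14.29 on Smaug RIP arrays and 10.13, 11.07, 10.84 and 10.25 on control RIP arrays. The values within each RIP spanned less than 1 log2 unit, and the difference of 3.97 (15.6-fold) varied between 3.43 and 4.23 on the 4 pairs.

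*NaPi-III* (FBtr0076213) was a member of lesser enrichment, 142nd of 184. Its log2 signal was 10.13, 10.31, 10.03 and 8.76 on Smaug RIP arrays 1a, 1b, 2 and 3, against 7.93, 8.65, 8.44 and 7.93 on control RIP arrays. Smaug RIP 3 was the low array and lay only just above control RIP 1b, the high one. The means were 9.67 ± 0.79 and 8.22 ± 0.26 (SD, n = 3), a log2 difference of 1.45 or 2.73-fold, with 2.21, 1.65, 1.59 and 0.83 on the 4 pairs. Input signals of *NaPi-III* were 10.46, 10.91 and 10.86.

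*Uba1* (FBtr0088499) ranked 159th. Its log2 signal was 9.61, 9.28, 8.53 and 10.10 on Smaug RIP arrays and 7.88, 8.40, 8.04 and 8.02 on control RIP arrays. Here Smaug RIP 2 was the low array and Smaug RIP 3, the low one for *NaPi-III*, was the high one, while the controls spanned about 0.5 log2 units. The means were 9.36 ± 0.79 and 8.07 ± 0.06 (SD, n = 3), a log2 difference of 1.29 or 2.45-fold, and the pairs of arrays gave 1.73, 0.88, 0.49 and 2.08. Input signals of *Uba1* were 11.87, 11.75 and 11.71.

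Of the 7 named transcripts of the window that were no members, 6 differed little between RIPs, with log2 differences from -0.37 to 0.27. They included 3 genes of a list of 9 chromatin genes, *kis*, which encodes a chromatin remodeller (0.27), *SuUR*, a suppressor of under-replication (-0.37), and the histone deacetylase gene *HDAC3* (-0.25). The other genes of that list could not be matched to transcripts of the window, and whether they are among the unnamed members is not known. The paper counts *asf1* and *Nap1*, which are on that list, among its Smaug-bound mRNAs. The exception among the 7 named transcripts was *slender lobes* (*sle*, FBtr0082231), which encodes a nucleolar protein. Its Smaug RIP signals were 9.81, 10.84, 10.60 and 10.02 and its control RIP signals 6.56, 8.86, 8.09 and 10.49. Control RIP 3 lay among the Smaug RIPs and the other 3 controls below them, so that *sle* missed the criteria through that array despite a log2 difference of 1.55, larger than those of *NaPi-III* and *Uba1*.

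**Figure D4:**
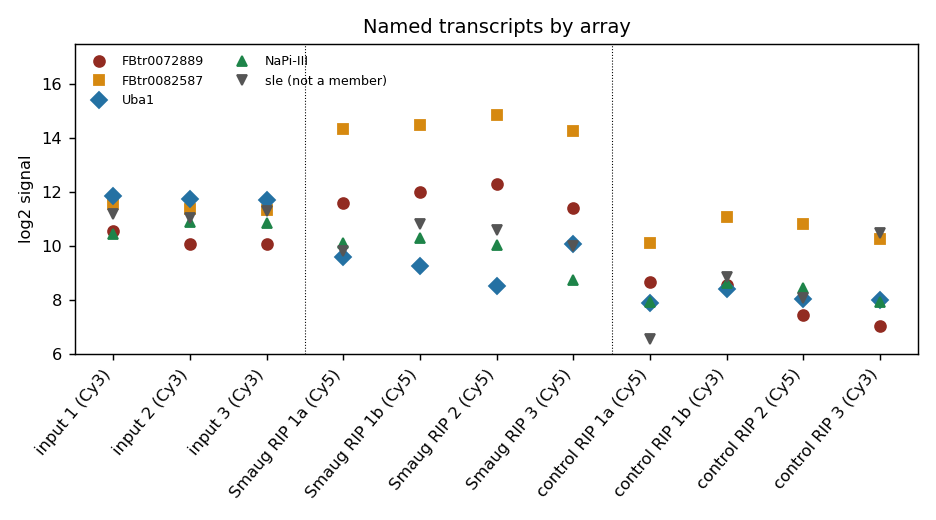
Log2 signal (y axis) of the members FBtr0072889, FBtr0082587, *Uba1* and *NaPi-III* and of *sle* on each of the 11 arrays (x axis, with dye). Dotted lines separate input, Smaug RIP and control RIP. Each member has all its Smaug RIP points above all its control RIP points, whereas *sle* has 10.49 on control RIP 3.

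The share of transcripts that met the criteria rose with input signal. When the window was divided into 4 bins of like size by mean input, 31 of 890 transcripts (3.48%) were members in the lowest bin, 39 of 889 (4.39%) and 44 of 889 (4.95%) in the middle bins, and 70 of 890 (7.87%) in the highest. The mirrored criteria were met by 4, 6, 5 and 5 transcripts (0.449%, 0.675%, 0.562% and 0.562%), too few to tell whether their share changes with input. Outside the window, the criteria on the RIP arrays alone were met by 24 of the 300 transcripts of highest input, 84 of 3858 between the 50th and 75th percentiles (2.18%) and 7 of 7717 below the median (0.0907%), 299 of 15433 transcripts in all (1.94%). Among the 300, however, 19 (6.33%) met the mirrored criteria too. Within the members, mean input and the log2 difference had a Pearson's r of 0.27 across 184 transcripts, compared with -0.09 in the rest of the window. The number of probes per transcript, which the criteria did not use, was alike. 5 probes measured 112 members (60.9%) and 58.2% of the other transcripts, 4 probes 55 members and 1012 others, and 3 or fewer the remaining members and transcripts.

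**Figure D5:**
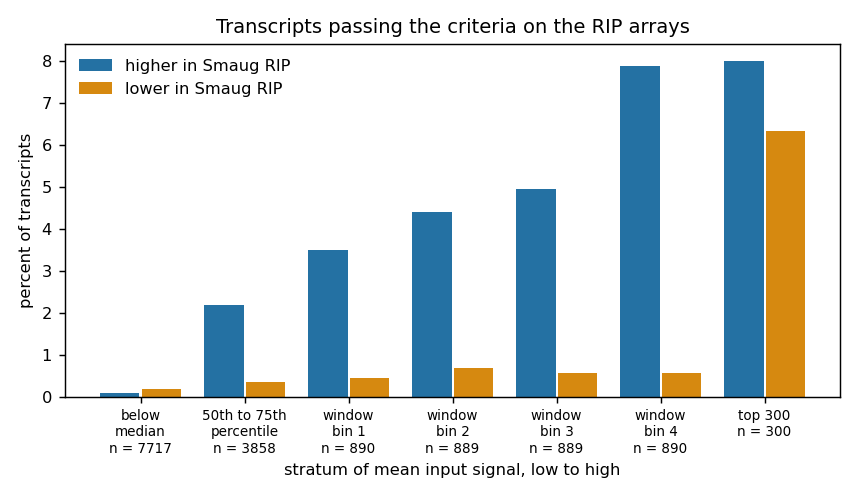
Percent of transcripts (y axis) that met the criteria on the RIP arrays in the higher, blue, and the lower direction, orange, by stratum of mean input signal (x axis, low to high). The 4 bins of the window rise from 3.48% to 7.87% in the higher direction and stay between 0.449% and 0.675% in the lower.

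Relative to the input, members stood apart from the other abundant transcripts in Smaug RIPs but not in control RIPs. The input cancels in the difference between the Smaug and control ratios of a transcript. That difference is the one the members were chosen on and the fold classes were cut on, so the ratios are no separate evidence. The Smaug RIP to input ratio of the members had a log2 median of -0.64 (SD of 0.15 over the replicate medians, n = 3), and that of the other transcripts of the window was -2.61 (SD 0.22). In control RIPs the median ratio to input was -2.62 for the members (SD 0.48) and -2.62 for the others (SD 0.34). In Smaug RIPs 46 members (25.0%) exceeded their mean input signal, as did 10 of the 3374 others (0.296%). In control RIPs none of the members and 3 of the 3374 others (0.0889%) did, so members and others were alike there. The share above input was 10.2% in the 2- to 4-fold class, 31.3% in the 4- to 8-fold class and 78.9% at or above 8-fold, where it held for 15 of 19. These counts depend on how inputs and RIPs are scaled to each other, since they were deposited on different scales and may have been normalized apart. With arrays centred on their medians, 28 members (15.2%) and 7 others (0.207%) exceeded input in Smaug RIPs. After quantile normalization of all 11 arrays, the members' median ratio turned to 1.53, and 175 members (95.1%) and 536 others (15.9%) exceeded input, including 90.8% of the 2- to 4-fold class and all members above it. In control RIPs 42 members (22.8%) and 462 others (13.7%) then did. The Smaug RIP medians of members and others were 1.97 apart as deposited and after centring, and 2.42 apart after quantile normalization. As deposited, FBtr0082587 had the highest ratio, 3.10 for Smaug and -0.87 for control RIPs, and *NaPi-III* and *Uba1* had -1.07 and -2.42 in Smaug RIPs.

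In a fit over all 7716 expressed transcripts (limma, Benjamini-Hochberg adjusted p under 0.05, n = 3 per group), 54 of the 184 members were called higher in Smaug RIPs, where 1.06% of the expressed transcripts were. With the replicate number as a block, used because the scanner image names of same-numbered RIPs start alike, 106 members were called, where 2.45% of the expressed transcripts were, and these included all 54. No member was called lower in either fit, where 0.0259% and, with the block, 0.376% of the expressed transcripts were. The fit uses the same contrast as the criteria, so these counts only describe how many members reach this threshold, and they depended on single replicates: without replicate 2 of both RIPs 1 member was called and without replicate 3 70 were. By class, 1 of 98 members below 4-fold, 34 of 67 between 4- and 8-fold and all 19 at or above 8-fold were called. *NaPi-III* and *Uba1* were not called (adjusted p = 0.43 and 0.499, limma) and passed in none of 17 alternative fits (0.142 to 0.999 and 0.225 to 0.999). The paper, in contrast, counts *Uba1* among the mRNAs that interact with Smaug. Its call came from SAM on ratios to input with another expression filter, which was not run here. FBtr0082587 was called in all 17 alternative fits and FBtr0072889 in all except the fit without replicate 2 (adjusted p = 0.915). Conversely, 28 of the 82 transcripts called higher were no members, 17 of them among the 300 of highest input, 10 below the window and 1 in the window with overlapping arrays.

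The edges of the criteria were close on both sides. The member of smallest difference, 1.02, had 9.18, 9.46, 9.37 and 9.97 on Smaug RIP arrays and 7.76, 9.10, 8.07 and 9.11 on control RIP arrays. The nearest transcript without overlap that was left out had a difference of 0.98, with 10.32, 9.17, 9.03 and 8.54 against 8.24, 8.08, 8.10 and 8.10. The smallest gap of a member between its lowest Smaug RIP and highest control RIP array was 0.003 log2 units, and the transcript nearest to it that was left out despite a difference of at least 1 had a gap of -0.002. In all, 27 transcripts of the window were left out by the size of the difference alone and 193 by overlap alone.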

How the data were processed

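RIP cDNA, primed with anchored oligo(dT), was hybridized to NimbleGen 4x72K arrays. The authors normalized the arrays with RMA (quantile method) and gave 1 value per transcript from 1 to 5 probes. The deposited input signals are on the log2 scale (5.01 to 15.99) and the deposited RIP signals are linear intensities (52.4 to 54286), of which the log2 was taken here with no pseudocount. For the annotation release, the sources used here give none. Precision is limited by how few arrays there are, and since the RIPs are called biological replicates without naming separate extracts, p-values measure only the spread between these samples. The series table held the same values as the files of single arrays.

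The members and gene lists were chosen with earlier results of these data known. Members were found as the report states. Expressed transcripts were those above the median mean input (6.85). The fit over expressed transcripts used limma 3.58.1 under R 4.3.3 (eBayes with trend) and was tested on simulated data. The study used SAM, which was not run. The scanner image names of same-numbered RIPs start alike, and the replicate number was therefore also fitted as a block, though neither the labels nor the data establish that the numbers pair samples. Every member with a single gene in RefSeq's Release 6 table and the 2 unnamed ones of highest enrichment were to be named. Of the lists, only the chromatin list had named transcripts in the window, and the others were not analysed here. Alternatives changed technical replicates, scaling, dye, filters, thresholds, the block, the trend and the replicates used. No sequence was used here.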

Additional observations from a re-analysis of the deposited data

How the results depend on the processing

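The number of members, 184, stayed within 1.5 times in 12 of 18 alternatives, and their median log2 difference, 1.96, within 1 SD between replicate medians in 10 of 18. It was 292 with a median of 1.60 on Cy5 arrays only, 331 and 1.61 where overlap was judged within a replicate number, and the median was 2.19 with a minimum difference of 1.5. Leaving out replicates gave 187 to 466 members and medians of 1.53 to 1.89. Fewer arrays make the criteria easier to meet. The limma counts, 82 higher and 2 lower of all expressed transcripts and 54 members, became 155, 10 and 98 with the technical replicates kept apart (4 arrays a group), 189, 29 and 106 with the replicate block, where same-numbered RIPs deviated together at correlations of 0.306, 0.061 and 0.200, 40, 5 and 27 with dye as a covariate, 52 higher without the expression filter, 32 lower on Cy5 arrays only, 4 lower above the 75th percentile of input, 5 lower and 95 members without the variance trend, and 6 lower after quantile normalization of the RIP arrays. Without single replicates they were 1 to 130 higher, 0 to 49 lower and 1 to 75 members. Read on the replicate left out, the share higher in the Smaug RIP was 79.5% for replicate 1 after quantile normalization of the RIP arrays (84.6% before) and 84.3% for replicate 2 among transcripts above the median of input, with medians of 1.19 for replicate 2 and 1.13 for replicate 3. The median ratio of Smaug RIP to input became -0.94 with arrays centred on their medians and 1.53 after quantile normalization of all 11 arrays, and that of control RIP -0.71 after the latter. The cause was not tested.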

Other observations

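The *rdx* transcript FBtr0082871, whose gene product recruits substrates to a Cullin ubiquitin ligase, met the criteria on the RIP arrays but was left out as 187th in input signal. Its log2 signals were 12.56, 12.34, 12.11 and 12.28 on Smaug RIP arrays 1a, 1b, 2 and 3 and 9.65, 11.38, 10.36 and 8.93 on control RIP arrays, and the highest control was again 1b. Of the 193 transcripts of the window left out by overlap alone, 79 would have had no overlap without Smaug RIP 3, 74 without control RIP 1b, 25 without control RIP 1a, 25 without Smaug RIP 2 and 6, *sle* among them, without control RIP 3.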
